A study of Rattus norvegicus with 10 samples.

Results

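Interferon response genes were examined in the RNA of rat milk fat. They are 9 genes (Stat2, Irf1, Irf7, Irf9, Isg15, Ifit2, Ifit3, Mx1 and Usp18) of the 16748 in the deposited table, taken by symbol, and all 9 varied between libraries, as 12992 genes did. The samples were milk of wild type Sprague-Dawley dams, taken on postnatal day (P) 10 after a period apart from the pups, under isoflurane and after oxytocin. Dams of 5 libraries lived in standard laboratory cages (SD) and those of 5 libraries in environmental enrichment (EE), a large multi-level cage with ramps, tubes and toys. Litters were standardized and cross-fostered across the housing groups, and the dams' age, cage and foster litter are not given in the labels. The labels call the replicates biological without saying that each came from its own dam or cage, and the p-values reflect the spread among the sequenced libraries alone.

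Interferons are secreted proteins that cells release when they sense viral or misplaced nucleic acid. Type I interferons bind a receptor whose kinases JAK1 and TYK2 activate STAT2, which joins IRF9 in the complex ISGF3, and this complex binds interferon-stimulated response elements and switches on antiviral genes. Type II interferon acts at gamma-activated sites, of which Irf1 is a classic target. Among the 9 genes, Stat2 and Irf9 encode parts of ISGF3, Irf1 and Irf7 encode further transcription factors, Isg15, Ifit2, Ifit3 and Mx1 encode antiviral effectors, and Usp18 encodes a brake. In lactation the mammary epithelium sheds fat globules that carry some of its cytoplasm, and milk also holds leukocytes.

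Promoters were available for 6 of the 9 genes (Stat2, Irf1, Irf7, Irf9, Ifit3 and Mx1) in RefSeq, on the rat build GRCr8, whereas the study's reads were aligned to rn6. The letters GAAANNGAA (the core of an interferon-stimulated response element) and TTCNNNGAA (a gamma-activated site) were searched on both strands from 250 bases before to 50 after each gene's start. The first occurred in 9.71% of the 33469 promoters of the table and the second in 8.87%. Of the 6 promoters, those of Irf7 and Ifit3 held the first, once and at 2 places, those of Irf1 and Irf9 held the second, and those of Stat2 and Mx1 held neither. The 250 bases before the start are printed for Ifit3 and Irf7, whose counts varied widely between libraries and were highest in EE replicate 3, and for Irf1, which was not highest there. Capitals mark the response element core in Ifit3 and Irf7, read on the opposite strand, and the gamma-activated site in Irf1.
Ifit3, chr1:241527076-241527325, forward strand: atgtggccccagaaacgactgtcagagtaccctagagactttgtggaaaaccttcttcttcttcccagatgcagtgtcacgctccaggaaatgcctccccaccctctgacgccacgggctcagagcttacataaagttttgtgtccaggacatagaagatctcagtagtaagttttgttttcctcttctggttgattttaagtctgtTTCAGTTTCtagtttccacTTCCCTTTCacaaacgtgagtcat
Irf7, chr1:205800024-205800273, reverse strand: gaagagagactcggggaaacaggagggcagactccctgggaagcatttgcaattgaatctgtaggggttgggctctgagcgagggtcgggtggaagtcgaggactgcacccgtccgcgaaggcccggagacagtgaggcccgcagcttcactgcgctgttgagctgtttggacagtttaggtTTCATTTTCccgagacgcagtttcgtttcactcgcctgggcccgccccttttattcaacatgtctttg
Irf1, chr10:38417685-38417934, forward strand: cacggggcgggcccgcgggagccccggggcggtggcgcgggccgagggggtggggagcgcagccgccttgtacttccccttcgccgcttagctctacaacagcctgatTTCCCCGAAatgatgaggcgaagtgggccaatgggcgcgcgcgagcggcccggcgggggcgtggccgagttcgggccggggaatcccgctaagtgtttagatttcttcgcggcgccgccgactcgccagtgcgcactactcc
In Ifit3 the matches lie at bases -43 to -35 and -24 to -16 from the start, in Irf7 at -68 to -60, and in Irf1 at -142 to -134. A match of letters describes the sequence and is no evidence of binding.

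The milk fat RNA carried the secretory program. The 5 casein genes took 54.0% to 61.2% of all normalized counts in 8 libraries, 44.1% in EE replicate 3 and 40.4% in EE replicate 5. Depth, estimated from the smallest step between low values, was 43283260 to 70193850 reads in SD libraries and 51762984 to 63827105 in EE libraries. Of 21 varying leukocyte markers, 0 differed between housing groups at an unadjusted p of 0.05 (limma), where 7.4% of all genes did. With so few markers, 0 is close to that share. The markers' summed normalized count ranged from 415 to 2410 in SD and from 238 to 1917 in EE libraries. The B cell gene Ms4a1 and the macrophage gene Cd163 were at or near 0. Ptprc (CD45, on all leukocytes) was present in every library, as were the myeloid genes Lyz2 (77.8 to 1407 normalized counts), Csf1r (21.2 to 197) and Cd68 (9.59 to 183). In bulk RNA, fewer cells of a type and less RNA per cell cannot be told apart. SD replicate 4 was not used in the authors' own comparison, as their deposited mean counts show, so values without it are given as well.

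Housing was not accompanied by a detectable change in any of the 9 genes. On the deposited log2 scale, 8 of them had a higher mean in EE and 1, Mx1, a lower one, with differences from -0.15 to 0.39. By limma, 0 of 9 passed an unadjusted p of 0.05 over all 10 libraries, without SD replicate 4 or without EE replicate 3, where 7.4%, 10.4% and 4.84% of all genes tested did. No gene of the table passed an adjusted p of 0.05 (0 of 12992, or 0.0%, by limma, with 961 at an unadjusted p of 0.05), and the smallest adjusted p among the 9 genes was 0.708. The study, by DESeq2 with a fold change above 1.3, did report genes at an adjusted p under 0.05. The absence of such genes here thus holds for the limma fit over all 10 libraries. The groups overlapped for each of the 9. What set the libraries apart was EE replicate 3, the highest of the 10 for 8 of the 9 genes, which holds for 8.87% of all genes.

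**Figure D1:**
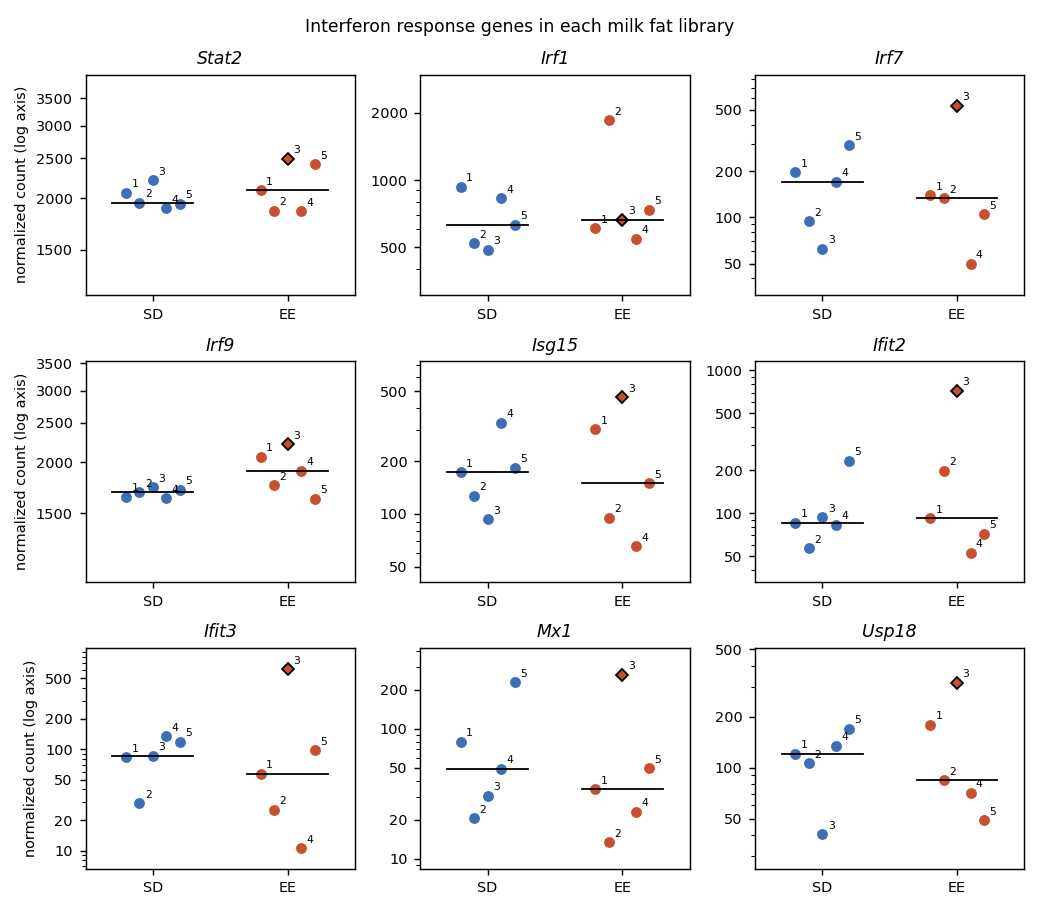
Normalized counts of the 9 interferon response genes in each library, on a log axis with its own range per gene. Points are single libraries labelled by replicate number (blue SD, orange EE, a black-edged diamond for EE replicate 3), and lines are group medians. EE replicate 3 is the highest point in 8 of the 9 panels, and Irf1 is highest in EE replicate 2.

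The ISGF3 components were steady. Stat2, which carries the signal of the type I receptor, measured 2060.0, 1950.2, 2213, 1891 and 1939 normalized counts in SD replicates 1 to 5 and 2090.3, 1867, 2496, 1862 and 2421 in EE replicates 1 to 5. EE replicates 3 and 5 lay above all SD libraries, while EE replicates 2 and 4 lay below all of them. Its mean was 2011 ± 129 (SD, n = 5) in SD housing and 2147 ± 299.9 (SD, n = 5) in EE. The EE minus SD difference was 0.083 ± 0.10 (SE) on the log2 scale, with a 95% confidence interval of -0.14 to 0.30 and an adjusted p of 0.890 (limma), and was 0.062 without SD replicate 4.

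Irf9, the DNA-binding part of ISGF3, came closest to a housing difference. Its normalized counts were 1645, 1689, 1738, 1632 and 1711 in SD replicates 1 to 5 and 2064, 1756, 2213, 1906 and 1627 in EE replicates 1 to 5. EE replicates 1 to 4 were above all SD libraries and EE replicate 5 was below all of them. Means were 1683 ± 44.6 (SD, n = 5) in SD and 1913 ± 234 (SD, n = 5) in EE. The log2 difference was 0.17 ± 0.092 (SE; 95% interval -0.032 to 0.37; unadjusted p = 0.0915 and adjusted p = 0.708 by limma), and the two-sided exact permutation test of the group means gave p = 0.0794, where 0.00794 is the smallest it can give. Without SD replicate 4 the difference was 0.16 (exact p = 0.127), and without EE replicate 5 it was 0.22 with an unadjusted p of 0.0310 (limma). Highest over lowest library was 1.36-fold for Irf9 and 1.34-fold for Stat2.

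Irf1, a factor induced early by interferon-gamma, followed another library. SD replicates 1 to 5 had 931, 520.5, 488, 831 and 631 normalized counts, and EE replicates 1 to 5 had 607, 1859, 663, 545 and 737. EE replicate 2 stood alone above the others, which all lay between 488 and 931, and EE replicate 3 was 1.05-fold the median of the other 9 libraries. Means were 680.3 ± 194 (SD, n = 5) in SD and 882 ± 550.4 (SD, n = 5) in EE. The log2 difference of 0.24 ± 0.28 (SE; 95% interval -0.38 to 0.85; adjusted p = 0.890 by limma) was 0.31 without SD replicate 4 and -0.052 without EE replicate 2.

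Irf7, the factor that amplifies type I interferon production, varied 10.7-fold between libraries. Its normalized counts were 197, 94.2, 62.3, 171 and 294 in SD replicates 1 to 5 and 139.7, 133, 532, 49.9 and 105 in EE replicates 1 to 5. The highest and the lowest library were both from EE housing, and SD replicate 5 was second. Means were 164 ± 91.3 (SD, n = 5) and 192 ± 193 (SD, n = 5), and medians were 171 in SD and 133 in EE, in the opposite order. The log2 difference was 0.010 ± 0.39 (SE; 95% interval -0.85 to 0.87; adjusted p = 0.996 by limma). It was 0.045 without SD replicate 4 and -0.35 without EE replicate 3.

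In the effectors Ifit2, Ifit3 and Mx1 the range between libraries was wider than in the other 6 genes. EE replicate 3 also lay farthest above the median of the other 9 libraries there, though in Mx1 SD replicate 5 was nearly as high. Ifit2, whose protein binds RNA and restrains viral replication, measured 85.9, 57.1, 94.0, 83.1 and 234 normalized counts in SD replicates 1 to 5 and 92.8, 198, 723, 53.0 and 71.7 in EE replicates 1 to 5. EE replicate 3 was 8.42-fold above the median of the other 9 libraries and 3.09-fold above the next, SD replicate 5. Group means were 111 ± 70.3 (SD, n = 5) in SD and 228 ± 283 (SD, n = 5) in EE, with medians of 85.9 and 92.8. The log2 difference of 0.39 ± 0.45 (SE; 95% interval -0.58 to 1.36; adjusted p = 0.886 by limma) had the largest size among the 9 genes. It was 0.35 without SD replicate 4 and -0.055 without EE replicate 3.

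Ifit3, a partner of other IFIT proteins in binding viral RNA, had the widest range, 57.9-fold. SD replicates 1 to 5 had 83.1, 29.1, 86.3, 133 and 118 normalized counts, and EE replicates 1 to 5 had 57.1, 25.3, 614, 10.6 and 97.5. The EE group held both extremes, with EE replicate 3 at 4.61-fold the next library and EE replicate 4 the lowest. Means were 90.0 ± 40.1 (SD, n = 5) in SD and 161 ± 256 (SD, n = 5) in EE, against medians of 86.3 and 57.1. The log2 difference was 0.0015 ± 0.50 (SE; 95% interval -1.10 to 1.10; adjusted p = 0.999 by limma). It was 0.10 without SD replicate 4 and -0.53 without EE replicate 3 (unadjusted p = 0.0903 by limma, exact permutation p = 0.159).

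Mx1, a GTPase that blocks influenza and related viruses, was the gene with a lower mean in EE. Its normalized counts were 79.9, 20.6, 30.5, 49.4 and 229 in SD replicates 1 to 5 and 34.4, 13.4, 262, 23.0 and 49.8 in EE replicates 1 to 5. One library of each group was far above its others, SD replicate 5 and EE replicate 3, and they differed by 1.15-fold. Means were 81.8 ± 85.1 (SD, n = 5) in SD and 76.6 ± 105 (SD, n = 5) in EE. The log2 difference was -0.15 ± 0.42 (SE; 95% interval -1.07 to 0.77; adjusted p = 0.951 by limma). It was -0.20 without SD replicate 4, -0.52 without EE replicate 3 and 0.14 without SD replicate 5.

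Isg15 encodes a ubiquitin-like protein that is attached to other proteins during the response and is also secreted. SD replicates 1 to 5 had 173, 127, 93.2, 331 and 183 normalized counts, and EE replicates 1 to 5 had 304, 95.1, 462, 65.6 and 149.8. EE replicate 3 was highest, SD replicate 4 and EE replicate 1 followed, and EE replicate 4 was lowest. Means were 182 ± 91.2 (SD, n = 5) and 215 ± 166 (SD, n = 5), and the log2 difference was 0.053 ± 0.36 (SE; 95% interval -0.73 to 0.84; adjusted p = 0.979 by limma). It was 0.24 without SD replicate 4 and -0.22 without EE replicate 3.

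Usp18 encodes the protease that removes ISG15 from proteins and dampens signaling at the type I interferon receptor. Its normalized counts were 121, 106, 40.6, 135 and 169 in SD replicates 1 to 5 and 179, 84.6, 316, 71.2 and 48.9 in EE replicates 1 to 5. The highest library was again EE replicate 3, 1.76-fold above EE replicate 1, and the lowest was SD replicate 3. Means were 114 ± 47.5 (SD, n = 5) in SD and 140.0 ± 110.3 (SD, n = 5) in EE. The log2 difference was 0.087 ± 0.32 (SE; 95% interval -0.61 to 0.78; adjusted p = 0.961 by limma), 0.14 without SD replicate 4 and -0.17 without EE replicate 3.

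**Figure D2:**
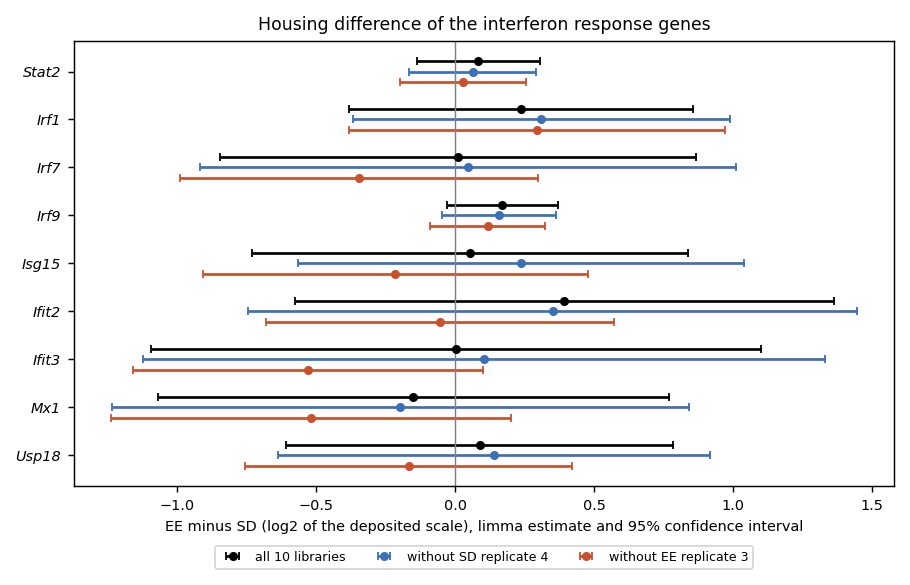
EE minus SD difference of each interferon response gene on the deposited log2 scale, as limma estimates with 95% confidence intervals, over all 10 libraries (black), without SD replicate 4 (blue) and without EE replicate 3 (orange). Each interval crosses 0. Without EE replicate 3, 6 of the 9 estimates lie below 0, against 1 over all 10 libraries.

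The sign of most differences changed without EE replicate 3, but not only without that library. For Ifit3, Irf7, Isg15 and Usp18, whose differences were small beside their SE, it also changed without another single library. Examples are Ifit3 without SD replicate 2 (-0.18) and Usp18 without SD replicate 3 (-0.097). The median of the 9 log2 differences was 0.083 over all 10 libraries, 0.14 without SD replicate 4 and -0.17 without EE replicate 3, while the median over all genes tested was -0.0087, -0.0016 and -0.016. Without EE replicate 3, Stat2 (0.028), Irf1 (0.29) and Irf9 (0.12) kept a higher mean in EE and the other 6 genes had a lower one, with 0 of 9 at an unadjusted p of 0.05 (limma). The smallest unadjusted p was then 0.0903, that of Ifit3. The intervals of Irf1, Irf7, Isg15, Ifit2, Ifit3, Mx1 and Usp18 over all 10 libraries reached beyond 0.7 (log2) on at least 1 side, so differences of that size lie within what these libraries allow.

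EE replicate 3 was more than 1 (log2) above the median of the other 9 libraries for 6 of the 9 genes, a limit chosen after the values were seen. They were Ifit2 (2.32), Ifit3 (2.14), Mx1 (1.73), Irf7 (1.54), Isg15 (1.25) and Usp18 (1.12). That level was reached by 62 genes of the table, or 0.477%. The 3 remaining members were Irf9 (0.35), Stat2 (0.34) and Irf1 (0.063). In the other libraries the same limit was passed by 1 of the 9 genes in SD replicate 5, 1 in EE replicate 2 and 0 in each of the rest, although SD replicate 4 had 214 such genes in all. The mean of the members' centred log2 values was 1.06 in EE replicate 3, 0.33 in SD replicate 5 and between -0.55 (EE replicate 4) and 0.097 (SD replicate 4) elsewhere. EE replicate 4 was the lowest library for 5 of the 9 genes.

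Of the 62 genes that high in EE replicate 3, 6 were members, 11 belonged to the interferon pathway lists and 45 to neither. Those 11 included Lgals9, Rsad2, Cxcl10, Gbp2, Ifit1, Oas2, Oasl2, Oas1a and Ifi44, all known interferon targets, and Rtp4 and Ifi27l2b made up the rest. Ifi27l2b (1287 normalized counts) was exceeded by SD replicate 4 (2808), and Oas1a (196) by SD replicate 1 (204). Among the 45 were the hemoglobin genes Hba1 (1155 normalized counts against 70.1 to 338 elsewhere) and Hbb (362 against at most 96.1). Genes of the cell cycle were there too, such as Rrm2 (5016 against 835 to 3182), while Top2a (4639) and Cdk1 (1208) were exceeded by another library. These genes were named after their values were seen, as was the choice of EE replicate 3. Ptprc was 259 in EE replicate 3, 250.4 in SD replicate 5 and 232 in SD replicate 4, and the summed leukocyte markers were 1126, 2410 and 1863 in these libraries. Of the 21 leukocyte markers, 5 (23.8%) were highest in EE replicate 3, against 8.87% of all genes. Their median there was 0.21 (log2) above that of the other 9 libraries. Estimated depth in EE replicate 3 was 57884488 reads, inside the range of the other libraries, and its casein share was given above. The part of blood, leukocytes, cell division or casein share in the levels of the 9 genes was not tested.

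**Figure D3:**
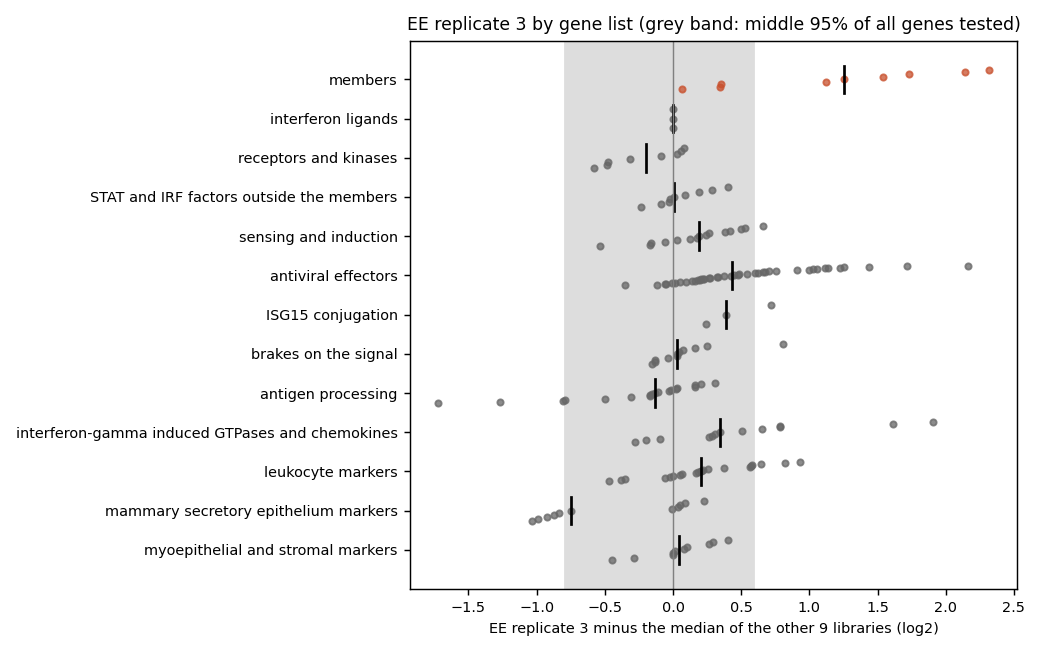
Log2 value in EE replicate 3 minus the median of the other 9 libraries, 1 point per gene, for the 9 members (orange) and for each list of pathway or cell type genes (grey). Black bars are list medians and the grey band holds the middle 95% of all 12992 genes. Of the members, 6 lie beyond 1, as do 9 antiviral effectors, while the receptors, the other STAT and IRF factors and the antigen processing genes lie near or below 0.

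Values of the 9 genes were more spread in EE than in SD housing. The standard deviation of the log2 values was larger in EE for 9 of the 9 genes, against 37.6% of all genes. For Ifit3 it was 1.29 in EE and 0.44 in SD, for Ifit2 1.09 and 0.48, and for Irf9 0.17 and 0.036. Without EE replicate 3 the spread in EE was the larger for 7 of the 9 genes, against 37.6% of all genes. The exceptions were Mx1 (0.29 against 0.73) and Irf7 (0.39 against 0.58). Among the 7, Ifit2 (0.50 against 0.48) and Usp18 (0.47 against 0.44) were nearly equal in both groups. The 9 genes were measured in the same libraries, so these counts are a description.

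Upstream of the 9 genes, the ligands were nearly silent. Of 13 interferon genes listed, 6 were in the table and 3 of these (Ifnb1, Ifna4 and Ifng) were at 0 in every library. Ifna1 and Ifna2 had 10 and 9.55 normalized counts in SD replicate 4 and at most 1.09 in any other library, and Ifnk had 1.08 in EE replicate 1 alone. EE replicate 3 was at 0 for all 6.

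The receptor chains and kinases carried counts in every library. EE replicate 3 was highest for 0 of the 8 measured, against 8.87% of all genes, so 0 among so few is close to that share. Ifngr1, a chain of the interferon-gamma receptor, fell by 0.52 on the log2 scale in EE (limma, unadjusted p = 0.0335, adjusted p = 0.657), from 3034 ± 402 (SD, n = 5) to 2179 ± 699.8 (SD, n = 5), and its unadjusted p was 0.0683 without SD replicate 4 and 0.0570 without EE replicate 3. EE replicate 5 had the lowest count, 1067, and SD replicate 3 the highest, 3417. Ifnar1, a chain of the type I receptor, had 422 ± 28.6 (SD, n = 5) in SD and 349 ± 47.1 (SD, n = 5) in EE, a log2 difference of -0.23 (limma unadjusted p = 0.0627, exact permutation p = 0.0238). Tyk2 had a log2 difference of 0.16 (limma unadjusted p = 0.0907, exact permutation p = 0.0159), with means of 1168 ± 83.6 (SD, n = 5) in SD and 1311 ± 81.9 (SD, n = 5) in EE. Without SD replicate 4 the exact permutation p was 0.0556 for Ifnar1 and 0.0397 for Tyk2. Jak1 (-0.065) passed neither test at 0.05, and the exact p of these genes are not adjusted for the number of genes. Among the 9 STAT and IRF factors outside the members, 0 passed by limma, where 7.4% of all genes did, with Stat3 at -0.083.

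Nucleic acid sensing held genes that passed in both directions. Trex1, the exonuclease that removes stray DNA, rose by 0.45 (limma, unadjusted p = 0.0038, adjusted p = 0.506), from 811 ± 143 (SD, n = 5) to 1134 ± 146 (SD, n = 5) normalized counts. Dhx58, which encodes the RIG-I-like receptor LGP2, rose by 0.33 (unadjusted p = 0.0108 by limma). Tlr7, a sensor of single-stranded RNA, was lower by 0.47 with few counts, 20.1 ± 10.01 (SD, n = 5) in SD and 5.61 ± 6.77 (SD, n = 5) in EE. The other 12 of 15 sensing genes did not pass, and of all genes 7.4% did.

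Of 42 antiviral effectors outside the members, 2 rose and 3 fell at an unadjusted p of 0.05 (limma), where 3.35% and 4.05% of all genes did. EE replicate 3 was the highest library for 18 (42.9%), against 8.87% of all genes. The largest fall was that of Ifitm3, a membrane protein that blocks virus entry, by 1.06 on the log2 scale (unadjusted p = 0.0012 and adjusted p = 0.506 by limma). Its normalized counts were 925, 368, 385, 974 and 809 in SD replicates 1 to 5 and 255, 326, 271, 303 and 194 in EE replicates 1 to 5, so the groups did not overlap. Ifitm2, its close relative, fell by 0.87 (unadjusted p = 0.0038), and EE replicate 3 was the highest EE library at 727. Dtx3l, a ubiquitin ligase, fell by 0.32 (unadjusted p = 0.0366), while Trim14, an adaptor in RNA sensing, rose by 0.37 (unadjusted p = 0.0029) and Cmpk2 rose by 0.50 (unadjusted p = 0.0495), all by limma. Without EE replicate 3, 1 effector rose and 5 fell at that limit, where 4.84% of all genes passed. Cmpk2 was lost (unadjusted p = 0.132, limma), and Mx2 (-0.54, unadjusted p = 0.0342, limma) and Parp9 (-0.37, unadjusted p = 0.0415, limma) were added to the falls. Without SD replicate 4, Cmpk2 was also lost (unadjusted p = 0.0542, limma). Ifit1 (0.18) and Oasl (-0.25) did not pass and were highest in EE replicate 3, at 146 and 129 normalized counts against at most 38.1 and 68.3 elsewhere. How reads that match several copies were counted is not given in the sources used here, so Ifitm2 and Ifitm3, and the Ifit, Oas, Mx and RT1 families, may share reads.

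Genes that attach ISG15 or restrain the signal come next. Of 3 ISG15 conjugation genes 0 passed, where 7.4% of all genes did, and Uba7, the activating enzyme, was highest in EE replicate 3 (980.2 normalized counts). Of 11 brakes, Trex1 alone passed over all 10 libraries, against the same 7.4% of all genes. Socs1, an inhibitor of JAK kinases, had 59.7, 55.7, 59.2, 387 and 56.4 normalized counts in SD replicates 1 to 5 and 178, 83.4, 111, 98.0 and 142 in EE replicates 1 to 5. All EE libraries were above all SD libraries but SD replicate 4, and the log2 difference was 0.22 (unadjusted p = 0.515, limma) with that library and 0.59 (unadjusted p = 0.0031) without it. The study lists Ifitm3, Trex1, Socs1, Trim14 and Dhx58 as changed in these libraries, so naming them here adds no independent evidence.

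The last lists hold genes tied to interferon-gamma. Of 19 antigen processing genes, 0 were highest in EE replicate 3, where 8.87% of all genes were. RT1-S3, an MHC class I gene, fell by 0.57 in EE (limma, unadjusted p = 0.0123, adjusted p = 0.587). Of 13 induced GTPases and chemokines, 6 were highest in EE replicate 3, among them Cxcl10 (188 normalized counts against 0 to 62.8 elsewhere) and Gbp2 (202 against 6.60 to 63.0), and Cxcl9 was lower in EE by 0.38 at 15.8 ± 11.0 (SD, n = 5) against 5.15 ± 4.74 (SD, n = 5) counts (limma, unadjusted p = 0.0413, and 0.0513 without SD replicate 4 and 0.0611 without EE replicate 3). Counting each pathway gene once, 4 of 120 rose and 7 fell at an unadjusted p of 0.05, where 3.35% and 4.05% of all genes did, and the median difference was -0.037.

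**Figure D4:**
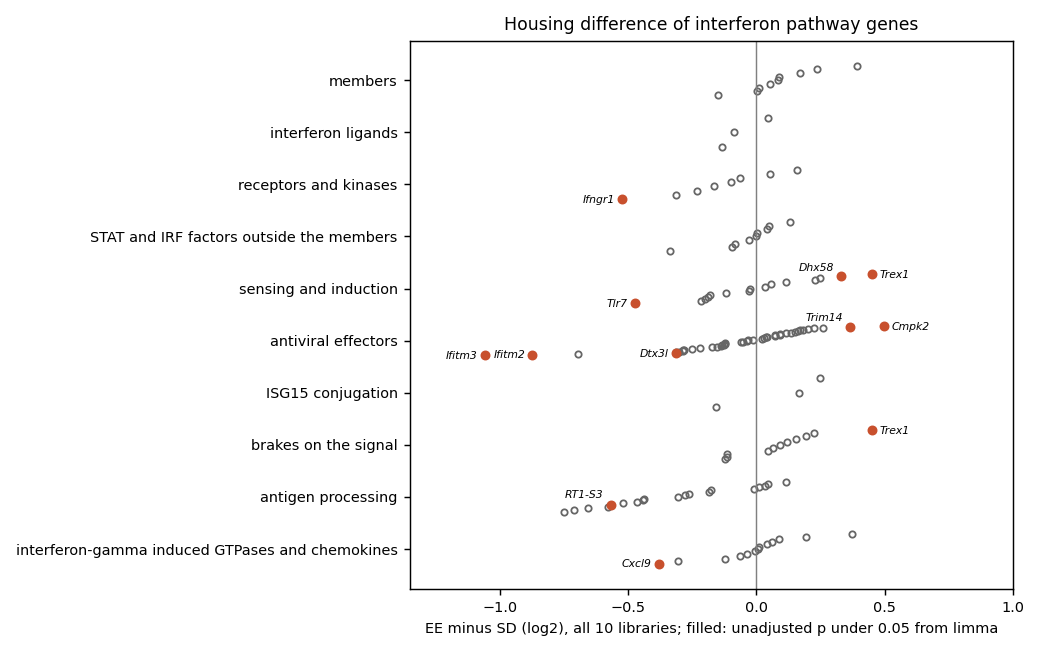
EE minus SD difference (log2) of the 9 members and of the genes of each interferon pathway list, 1 point per gene, over all 10 libraries. Filled orange points with names passed an unadjusted p of 0.05 by limma, and open grey points did not. None of the 9 members is filled, and of the 120 other pathway genes 4 are filled to the right of 0 and 7 to the left (Trex1 is drawn in both of its lists).

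Genes outside the members were ranked by how closely they followed them. Among 8829 genes with a mean of at least 50 normalized counts, those most like the mean of the 9 members over the 10 libraries were Slfn4 (Pearson r = 0.904), Lgals9 (0.896), Apol9a (0.864), Scyl3 (0.855), Rsad2 (0.845), LOC100910973 (0.843), Supt20h (0.839), Lime1 (0.827), Eif2ak2 (0.825) and Uba7 (0.820). Slfn4 had 1410 normalized counts in EE replicate 3, 735 in SD replicate 5 and 62.4 in EE replicate 4, the same order as the mean of the members. For Irf7 alone the closest were Apol9a (0.891), Supt20h (0.888), Mx1 (0.877), Usp18 (0.869) and Ccl24 (0.865). Without EE replicate 3, LOC100910973 and Supt20h were again among the 10 closest to the mean of the members and the other 8 were different genes. These values describe 10 libraries that share their scaling, and 1 library weighs heavily in them.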

How the data were processed

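Milk fat RNA was sequenced from 5 SD and 5 EE rat libraries, grouped by the labels. The reads were 100-base and single-end, the genome build was rn6 and the study's test was DESeq2, whereas the read counter is not given in the sources used here. Per the labels and file headers, the authors deposited regularized log2 values. Their shared minimum in genes without reads is that of a variance-stabilizing transformation, which was inverted to normalized counts. The authors' deposited baseMean, a mean normalized signal over 1354 genes, differed from these by an SD of 0.022 (log2) without SD replicate 4 and 0.0807 with it. The authors' fold changes and p-values were not used.

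Housing groups were compared by limma 3.58.1 (R 4.3.3, variance trend, two-sided) on log2 values of the 12992 varying genes (12955 without SD replicate 4), with Benjamini-Hochberg adjustment over all of them, checked on simulated data, and single genes by two-sided exact permutation tests. DESeq2 needs counts and was not run. Values under 10 reads were whole within 0.1 read in 89.2% to 98.2% of cases, which gave the depths. Depth limits the precision of low genes, whose differences the transformation pulls toward 0.

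The 9 members and all lists were chosen with earlier results of these data known. Named genes are the members, up to 4 genes per pathway list at an unadjusted p of 0.05 (smallest first), Stat3, Ifit1, Oasl, Ifnar1, Ifngr1, Jak1 and Tyk2 whatever their values, 5 genes the study lists as changed, and those most like the members (10) or Irf7 (5) by Pearson r. Some genes of this rule are not reported here. Alternatives were quantile scaling, median centring, log2 of count plus 1, a minimum mean count of 10, no trend, library weights, replicate block, casein share as a covariate and each library left out.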

Additional observations from a re-analysis of the deposited data

Results flagged for a closer look

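In groups of 5 libraries, the highest or lowest was compared with its neighbour relative to the group's range (Dixon's test at 95%), for each member, group and scale. Of 36 such checks 8 stood out. Chance gives about 1 in 20 for normally distributed values, a rate that need not hold for skewed counts. The checks on counts and on log2 values of a gene are not independent. No share over all genes is given, so the 8 are a description and not an excess. In EE housing, EE replicate 3 was far above the other libraries in Ifit2 (723 normalized counts), Ifit3 (614), Irf7 (532) and Mx1 (262). EE replicate 2 stood out in Irf1, with 1859 normalized counts and 10.93 on the log2 scale. In SD housing, SD replicate 5 stood out in Ifit2 (234 normalized counts) and Mx1 (229). On the log2 scale 1 of 18 checks stood out, that of Irf1, which is close to 1 in 20. The others that stood out were on counts.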

How the results depend on the processing

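The count of interferon response genes at an unadjusted p of 0.05 was 0 in most alternatives and 1, always Irf9, under quantile normalization (a log2 difference of 0.20), with library weights (0.20) and without EE replicate 5 (0.22), by limma. Leaving out libraries, the count ranged from 0 to 1 and that of all genes from 625 (without EE replicate 3) to 1346 (without SD replicate 4), against 961. SD and EE libraries of the same replicate number had correlations of deviations from -0.094 to 0.28. Libraries of unlike number were not compared, so these values cannot decide whether the numbers pair the libraries. With the replicate block 0 of 9 members and 1100 genes passed. The log2 differences ranged, over the left-out libraries, from -0.097 to 0.62 (Ifit2), -0.53 to 0.29 (Ifit3), -0.052 to 0.37 (Irf1), -0.35 to 0.24 (Irf7), -0.22 to 0.28 (Isg15), -0.57 to 0.14 (Mx1) and -0.17 to 0.26 (Usp18). Those of Stat2 (0.028 to 0.13) and Irf9 (0.12 to 0.22) kept their sign, and the median of the 9 ran from -0.17 to 0.24. With the casein share as a covariate the differences turned to -0.093 (Ifit2), -0.90 (Ifit3), -0.42 (Irf7), -0.29 (Isg15) and -0.094 (Stat2, also the median), and with log2 of count plus 1 to -0.34 (Ifit3) and -0.033 (Irf7). Without EE replicate 3 and SD replicate 4 together, an alternative chosen after seeing the data, they were -0.097 (Ifit2), -0.43 (Ifit3), -0.31 (Irf7), -0.033 (Isg15) and -0.12 (Usp18). Those of Stat2 and Irf9 were then 0.0071 and 0.11. The cause was not tested. Genes with few counts, such as the interferon ligands, are limited by depth.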
